A study of Homo sapiens with 6 samples.

Results

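The 10 genes described here encode the retinoblastoma pocket proteins RB1, RBL1 and RBL2 and the transcription factors E2F1, E2F2, E2F3, E2F4, E2F5, E2F7 and E2F8. They were chosen by gene name and not by a cutoff on measured values, though earlier results of these data were known. They are 10 of the 26286 genes listed in the deposited tables. A second entry named RBL1 overlaps the main one by 211 bases on the other strand, held 5 counts in 1 DMSO library and none elsewhere, and was kept apart. RNA was sequenced from HT-1080, an established human fibrosarcoma cell line that carries an activating NRAS mutation. Cells received 2 µM palbociclib, 500 nM pimasertib or the vehicle DMSO for 48 h, with 2 libraries per group. Palbociclib inhibits the kinases CDK4 and CDK6, and pimasertib inhibits MEK1 and MEK2, which activate ERK. Each drug was used at 1 dose and 1 time in 1 cell line, and the labels do not say whether a group's 2 libraries had separate cultures behind them. A p-value here therefore describes the spread among libraries, which could be technical.

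In cells that are not dividing, pocket proteins bind E2F factors at the promoters of S phase genes and keep those genes silent. Cyclin D with CDK4 or CDK6, followed by cyclin E with CDK2, phosphorylates the pocket proteins, which then release E2F. E2F1, E2F2 and E2F3 chiefly activate and are bound by RB1, E2F4 and E2F5 chiefly repress together with RBL1 (p107) or RBL2 (p130), and E2F7 and E2F8 repress without any pocket protein. ERK signalling feeds into the same step by raising cyclin D1.

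Totals ran from 13607490 to 17500655 counts per library, so that 3 counts, taken as the detection floor, equalled 0.168 to 0.220 CPM (counts scaled by library total and TMM). Mitochondrially encoded genes took 3.21% to 8.76% of the counts and a larger share in replicate 2 of every group. The mesenchymal markers expected of fibrosarcoma, 8 genes, summed to 6748 and 9107 CPM in palbociclib, 11643 and 15373 CPM in pimasertib and 4694 and 6903 CPM in DMSO. SPARC held most of the pimasertib sum, at 7191 and 10365 CPM, while VIM ran from 511 to 1190 CPM over all libraries, CD44 was lower in pimasertib at 416 and 461 CPM, against 1346 and 1832 CPM in DMSO, and S100A4 was near 0 at 0.23 to 5.71 CPM. The 5 epithelial markers analysed summed to 1.90 to 12.03 CPM, the 6 leukocyte markers to 3.82 to 8.52 CPM and the 5 endothelial markers to 0.806 to 2.07 CPM, with CDH1 and PTPRC at 0 in 5 of the 6 libraries each. The higher epithelial sum, in palbociclib replicate 2, was mostly KRT19 at 9.17 CPM.

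Among the members, RBL1, E2F1 and E2F2 fell under both drugs, and none passed as higher. Of the members that passed, E2F2 had the largest log2 fold change in palbociclib. In pimasertib E2F1 did, at -2.65 (95% interval -3.20 to -2.10), but this interval overlaps that of E2F2 at -2.33 (-3.18 to -1.49). Pimasertib also lowered E2F3, E2F4 and E2F7. In the edgeR quasi-likelihood fit over all 6 libraries, with Benjamini-Hochberg adjustment over 14839 tested genes and a threshold of 0.05, 3 of 10 members passed as lower in palbociclib against DMSO, where 2.44% of all tested genes were called lower. In pimasertib against DMSO 6 of 10 members passed as lower, where 11.7% of all tested genes were called lower. That count was 3 without pimasertib replicate 1, pimasertib replicate 2 or DMSO replicate 1, as E2F3, E2F4 and E2F7 no longer passed. Without adjustment, 5 members in palbociclib and 7 in pimasertib had a p under 0.05, all of them lower, beside 18% and 36.5% of all tested genes in either direction. DESeq2 called 4 as lower in palbociclib, beside 3.56% of all tested genes, and 7 in pimasertib, beside 12.2%. With the replicate number as a block in edgeR, 5 members passed as lower in palbociclib, beside 11.3% of all tested genes, and 8 in pimasertib, beside 23.6%. Both treated libraries lay below both DMSO libraries for 7 members in palbociclib, beside 23.3% of all tested genes, and for 8 in pimasertib, beside 32.6%. The median log2 fold change of the members was -0.35 in palbociclib and -0.72 in pimasertib, against 0.0048 and 0.0047 for all tested genes. Both comparisons use the same DMSO libraries. All 10 members passed the filter on low counts, and in bulk RNA fewer expressing cells and less RNA per cell cannot be told apart.

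**Figure D1:**
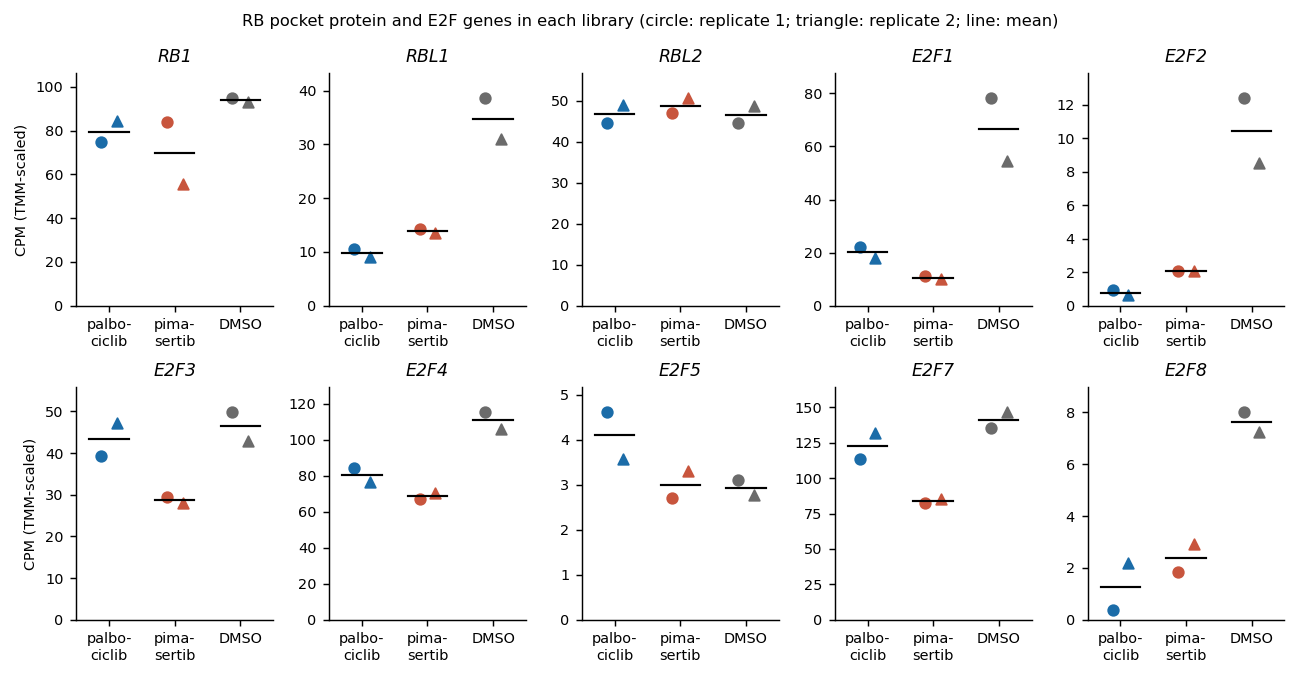
TMM-scaled CPM of each member in the 6 libraries, with palbociclib and pimasertib left of DMSO. Circles are replicate 1, triangles replicate 2 and lines the mean of n = 2, and each panel has its own axis from 0. RBL1, E2F1, E2F2 and E2F8 lie far below DMSO in all 4 treated libraries, while RBL2 sits between 44.6 and 50.7 CPM throughout.

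Promoter sequence is shown for the 3 genes that passed under both drugs, because E2F factors bind their own family's promoters. Beside them stand E2F3 and E2F7, which passed in pimasertib only. E2F4, which did so too, is not printed. RefSeq windows of GRCh38.p14, 250 bases before to 50 after a start site, matched 8 of 10 members, all but E2F5 and E2F8. They were searched on both strands for the E2F letters TTTGGCGC, TTTCGCGC, TTTCCCGC and TTTGCCGC. Any of the 4 occurred in 1164 of 35116 windows of all genes (3.31%) and in 22 of 53 windows (41.5%) of the 35 genes with a window in a textbook list of E2F target genes. Each line below gives the 150 bases just before the start site, read on the gene's strand, with matches in capitals.
RBL1 (chr20:37095998-37096147, minus strand, GRCh38.p14): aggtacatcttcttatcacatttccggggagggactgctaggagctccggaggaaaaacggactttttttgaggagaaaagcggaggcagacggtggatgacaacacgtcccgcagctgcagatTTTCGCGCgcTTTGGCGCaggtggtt
E2F1 (chr20:33686386-33686535, minus strand, GRCh38.p14): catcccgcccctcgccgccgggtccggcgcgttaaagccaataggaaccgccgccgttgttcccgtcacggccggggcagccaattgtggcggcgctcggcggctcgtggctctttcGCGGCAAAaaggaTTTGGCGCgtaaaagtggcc
E2F2 (chr1:23531234-23531383, minus strand, GRCh38.p14): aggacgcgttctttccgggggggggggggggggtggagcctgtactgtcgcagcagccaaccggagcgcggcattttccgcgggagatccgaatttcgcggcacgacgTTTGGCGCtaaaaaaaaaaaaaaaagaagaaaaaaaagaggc
E2F3 (chr6:20401729-20401878, plus strand, GRCh38.p14): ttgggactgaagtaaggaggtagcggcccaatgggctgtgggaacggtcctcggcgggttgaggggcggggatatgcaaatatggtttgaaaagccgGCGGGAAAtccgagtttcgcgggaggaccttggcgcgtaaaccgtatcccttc
E2F7 (chr12:77065570-77065719, minus strand, GRCh38.p14): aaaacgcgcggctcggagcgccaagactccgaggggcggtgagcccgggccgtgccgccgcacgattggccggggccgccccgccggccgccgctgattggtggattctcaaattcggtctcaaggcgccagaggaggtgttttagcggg
RBL1 has TTTCGCGC 26 bases and TTTGGCGC 16 bases before its start. E2F1 has TTTGCCGC on the other strand 33 bases before the start and TTTGGCGC at 20 bases, E2F2 has TTTGGCGC at 42 bases, and E2F3 has TTTCCCGC on the other strand at 53 bases. No match overlaps another. The windows of E2F7, E2F4 and RBL2, and the second window of E2F3, hold none of these letters, and RB1's window lies 172699 bases past the start of the gene and is not shown. A match is a description of letters and does not show binding.

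Of the pocket proteins, RBL1 alone passed the test against DMSO, under each drug. RBL1 (ENSG00000080839, chr20:35624752-35724398, minus strand, GRCh37) encodes p107, which accumulates in cycling cells and is itself an E2F target. It had 10.6 and 9.06 CPM in palbociclib, 14.3 and 13.5 CPM in pimasertib and 38.6 and 31.0 CPM in DMSO. Every treated library lay below both DMSO libraries. The mean was 3.54-fold lower in palbociclib (log2 fold change -1.82, SE 0.23, adjusted p = 0.00246, edgeR quasi-likelihood) and 2.51-fold lower in pimasertib (-1.32, SE 0.23, adjusted p = 0.00269). Within replicate numbers the log2 ratios were -1.86 and -1.77 for palbociclib and -1.44 and -1.20 for pimasertib.

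RBL2 (ENSG00000103479, chr16:53467889-53525561, plus strand) encodes p130, the pocket protein that prevails in resting cells. It had 44.7 and 49.1 CPM in palbociclib, 46.9 and 50.7 CPM in pimasertib and 44.6 and 48.6 CPM in DMSO. The ranges of all 3 groups overlapped. Its log2 fold change was 0.01 in palbociclib (95% interval -0.42 to 0.43, edgeR adjusted p = 0.989) and 0.07 in pimasertib (-0.36 to 0.49, adjusted p = 0.830). These intervals, like the others given for log2 fold changes, are from edgeR's SE, with no adjustment for the number of genes. AKTIP, on the other strand, overlaps RBL2 by 271 bases and held 75 to 183 counts per library, and the sources used here do not say whether counting used strand, so reads of such pairs cannot be told apart.

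RB1 (ENSG00000139687, chr13:48877887-49056122, plus strand), the retinoblastoma protein itself, had 74.8 and 84.2 CPM in palbociclib, 83.9 and 55.4 CPM in pimasertib and 94.9 and 93.0 CPM in DMSO. All treated libraries lay below DMSO, but the pimasertib pair had an SD of 20.1 CPM around a mean of 69.7 CPM. The log2 fold change was -0.24 in palbociclib (-0.75 to 0.27, edgeR adjusted p = 0.649) and -0.43 in pimasertib (-0.95 to 0.08, adjusted p = 0.208). With the replicate number as a block the pimasertib value passed (log2 -0.44, edgeR adjusted p = 0.0387). Its low library, pimasertib replicate 2, also had the largest mitochondrial share, at 8.76% of counts. The pimasertib value was -0.15 without that library (edgeR adjusted p = 0.755) and -0.77 without pimasertib replicate 1 (0.0918).

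Of the activating E2F factors, E2F1 and E2F2 fell under both drugs and E2F3 fell in pimasertib. E2F1 (ENSG00000101412, chr20:32263489-32274210, minus strand), the activator best known for driving S phase entry and, when in excess, cell death, had 22.2 and 18.1 CPM in palbociclib, 11.2 and 9.95 CPM in pimasertib and 78.2 and 54.7 CPM in DMSO. The 3 groups did not overlap, and pimasertib was the lowest. E2F1 was 3.30-fold lower in palbociclib (log2 -1.72, SE 0.24, edgeR adjusted p = 0.00319) and 6.27-fold lower in pimasertib (-2.65, SE 0.25, adjusted p = 9.88e-05). The SD of the DMSO libraries was 16.6 CPM, less than their distance from any treated library.

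E2F2 (ENSG00000007968, chr1:23832922-23857712, minus strand), a second activator, had 0.952 and 0.615 CPM in palbociclib, 2.07 CPM in each pimasertib library and 12.4 and 8.51 CPM in DMSO. Here the order of the drugs was turned round, with palbociclib the lowest. Set directly against pimasertib, the difference did not pass (log2 -1.41, edgeR adjusted p = 0.0716), though it did with the block (0.0152). These levels are 13 and 11 counts in palbociclib, 36 and 32 in pimasertib and 204 and 126 in DMSO, above the floor of 3 counts but few in palbociclib. The mean was 13.3-fold lower in palbociclib (log2 -3.75, SE 0.42, edgeR adjusted p = 0.00163) and 5.05-fold lower in pimasertib (-2.33, SE 0.38, adjusted p = 0.00214). RBL1, E2F1 and E2F2 passed against DMSO, under both drugs, in every fit that left out 1 of the 6 libraries, with adjusted p of at most 0.0134 in palbociclib and 0.0416 in pimasertib.

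E2F3 (ENSG00000112242, chr6:20402398-20493941, plus strand), the third activator, had 39.2 and 47.3 CPM in palbociclib, 29.4 and 27.9 CPM in pimasertib and 49.8 and 43.0 CPM in DMSO. The palbociclib and DMSO libraries overlapped, and both pimasertib libraries lay below them all. It fell by 0.69 on the log2 scale in pimasertib (SE 0.20, edgeR adjusted p = 0.0329), and its log2 fold change in palbociclib was -0.10 (-0.55 to 0.34, adjusted p = 0.847). The pimasertib call was lost without DMSO replicate 1 (adjusted p = 0.196), pimasertib replicate 1 (0.111) or pimasertib replicate 2 (0.181). Gene counts do not separate the E2F3a and E2F3b transcripts.

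Of the E2F factors that repress with pocket proteins, E2F4 fell in pimasertib and E2F5 showed no difference that passed. E2F4 (ENSG00000205250, chr16:67226072-67232821, plus strand), the main partner of p107 and p130, had 84.2 and 76.7 CPM in palbociclib, 66.8 and 70.6 CPM in pimasertib and 115 and 106 CPM in DMSO. No treated library reached DMSO. In pimasertib it fell by 0.69 on the log2 scale (SE 0.19, edgeR adjusted p = 0.0288), a call lost without DMSO replicate 1 (0.150), pimasertib replicate 1 (0.136), pimasertib replicate 2 (0.130) or palbociclib replicate 2 (0.0529). The palbociclib value was -0.46 (-0.89 to -0.03, adjusted p = 0.242), with within-replicate ratios of -0.46 and -0.47, and it passed with the replicate block (log2 -0.46, edgeR adjusted p = 0.0187).

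E2F5 (ENSG00000133740), the other pocket-protein-bound repressor, had 4.61 and 3.58 CPM in palbociclib, 2.71 and 3.30 CPM in pimasertib and 3.10 and 2.77 CPM in DMSO. Palbociclib libraries were above DMSO, and pimasertib libraries overlapped DMSO. With 41 to 64 counts per library its intervals were wide, at a log2 fold change of 0.48 (-0.38 to 1.34, edgeR adjusted p = 0.580) in palbociclib and 0.03 (-0.84 to 0.90, adjusted p = 0.962) in pimasertib. C8orf59, on the other strand, overlaps E2F5 by 3077 bases and held 42 to 92 counts, about as many as E2F5.

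The atypical factors E2F7 and E2F8, which repress E2F1 and other S phase genes in turn, differed in level and in response. E2F7 (ENSG00000165891, chr12:77415027-77459360, minus strand) had 114 and 132 CPM in palbociclib, 82.7 and 85.6 CPM in pimasertib and 136 and 147 CPM in DMSO. Pimasertib libraries stood apart from the other 4, while the palbociclib libraries came close to DMSO. It fell by 0.75 on the log2 scale in pimasertib (SE 0.20, edgeR adjusted p = 0.0245), a call lost without DMSO replicate 1 (0.0601), DMSO replicate 2 (0.0717), pimasertib replicate 1 (0.124) or pimasertib replicate 2 (0.134). The palbociclib value was -0.20 (-0.65 to 0.25, adjusted p = 0.662).

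E2F8 (ENSG00000129173, chr11:19245610-19263167, minus strand) had 0.366 and 2.18 CPM in palbociclib, 1.84 and 2.91 CPM in pimasertib and 8.01 and 7.23 CPM in DMSO. All treated libraries lay below DMSO, but the palbociclib libraries, at 5 and 39 counts, differed from each other beyond counting error, with exact 95% intervals of 1.62 to 11.7 and 27.7 to 53.3 counts. The log2 fold change was -2.53 in palbociclib (SE 0.61, edgeR adjusted p = 0.0515) and -1.68 in pimasertib (SE 0.58, adjusted p = 0.0619), so neither passed. Both passed with the replicate block (log2 -2.68, edgeR adjusted p = 0.00160, and log2 -1.76, adjusted p = 0.00533) and with DESeq2 (adjusted p = 0.00323 and 0.0385). The palbociclib value was -4.32 without palbociclib replicate 2 (edgeR adjusted p = 0.00228) and -1.80 without palbociclib replicate 1 (0.0364), and it also passed without DMSO replicate 2 (0.0400). The pimasertib value passed without palbociclib replicate 1 (0.00165) or palbociclib replicate 2 (0.00587).

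**Figure D2:**
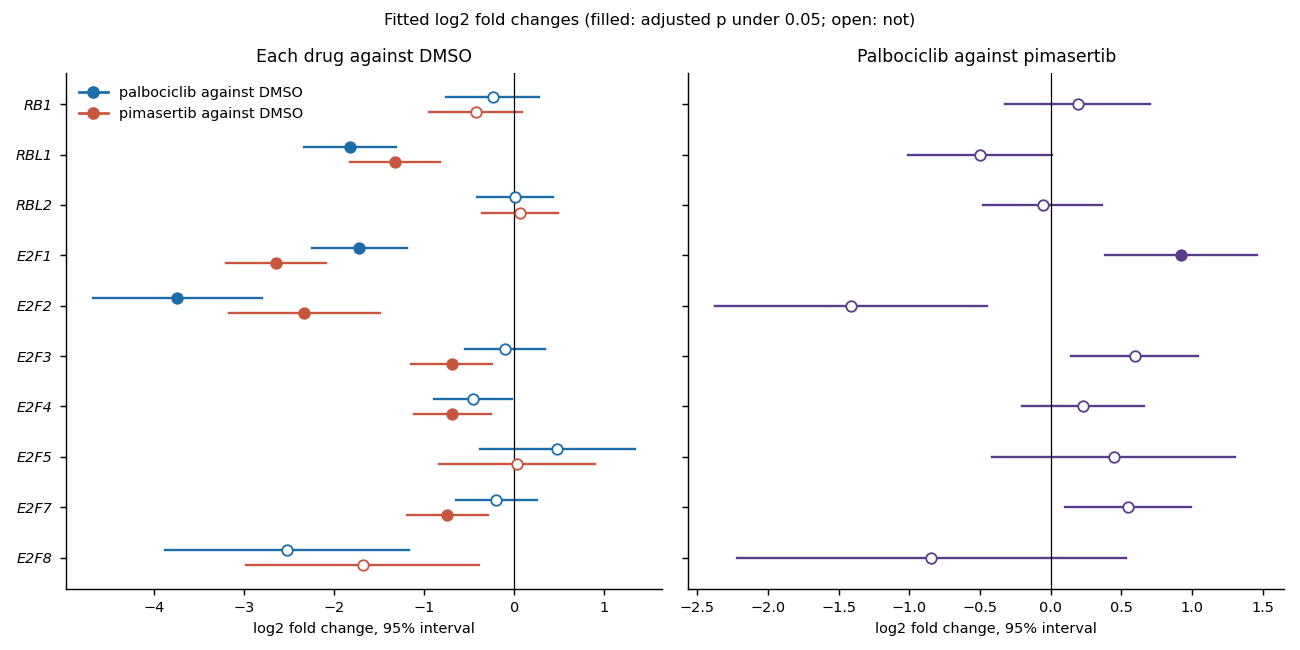
Fitted log2 fold changes of the 10 members with 95% intervals, for palbociclib against DMSO, pimasertib against DMSO and palbociclib against pimasertib. Filled points had an edgeR adjusted p under 0.05 and open points did not. RBL1, E2F1 and E2F2 are filled left of 0 in both comparisons with DMSO, and the interval of E2F8 is wide.

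With levels set per gene length by the authors' FPKM, the 3 pocket proteins summed to 26.5 and 29.6 FPKM in palbociclib, 30.04 and 23.9 FPKM in pimasertib and 34.9 and 34.02 FPKM in DMSO. RB1 held more than any other pocket protein in every library. RBL1 made up 6.28% ± 1.11 of the pocket protein FPKM in palbociclib, 9.19% ± 0.917 in pimasertib and 17.5% ± 2.38 in DMSO (SD, n = 2 each). The ratio of RBL2 to RBL1 was 4.87 and 6.27 in palbociclib, 3.81 and 4.35 in pimasertib and 1.34 and 1.82 in DMSO, with no overlap between treated and DMSO libraries.

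The 7 E2F genes summed to 70.5 and 72.5 FPKM in palbociclib, 53.2 and 53.0 FPKM in pimasertib and 113 and 99.7 FPKM in DMSO. E2F4, at a mean of 31.1 FPKM in palbociclib, 26.4 FPKM in pimasertib and 41.7 FPKM in DMSO, was the highest E2F gene in each group. E2F7 came next in both treated groups, at 21.7 ± 2.58 FPKM in palbociclib and 14.7 ± 0.0131 FPKM in pimasertib, whereas in DMSO E2F1 at 26.1 ± 6.53 FPKM and E2F7 at 24.2 ± 1.35 FPKM did not differ beyond their spread (SD, n = 2 each). E2F3 followed at 9.24 ± 1.35 FPKM in palbociclib, within the spread of E2F1 at 8.13 ± 1.08 FPKM there, at 6.07 ± 0.370 FPKM in pimasertib and at 9.62 ± 1.01 FPKM in DMSO. In DMSO E2F8 at 2.18 ± 0.159 FPKM and E2F2 at 1.98 ± 0.518 FPKM were within their spread of each other, and E2F5 at 0.573 ± 0.0450 FPKM was the lowest.

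Together the activators E2F1, E2F2 and E2F3 made up 24.6% and 24.4% of the summed E2F FPKM in palbociclib, 21.3% and 19.1% in pimasertib and 38.4% and 32.1% in DMSO. E2F4 with E2F5 made up 47.1% and 42.3% in palbociclib, 50.1% and 51.5% in pimasertib and 39.0% and 40.6% in DMSO. E2F7 with E2F8 made up 28.3% and 33.3% in palbociclib, 28.7% and 29.4% in pimasertib and 22.6% and 27.3% in DMSO. All treated libraries were below DMSO in the activator share and above DMSO in the shares of both kinds of repressor. The ratio of E2F4 to E2F1 was 3.63 and 4.07 in palbociclib, 5.70 and 6.79 in pimasertib and 1.41 and 1.86 in DMSO. These shares were not tested, and since they sum to the whole, 1 gene's fall raises the others.

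**Figure D3:**
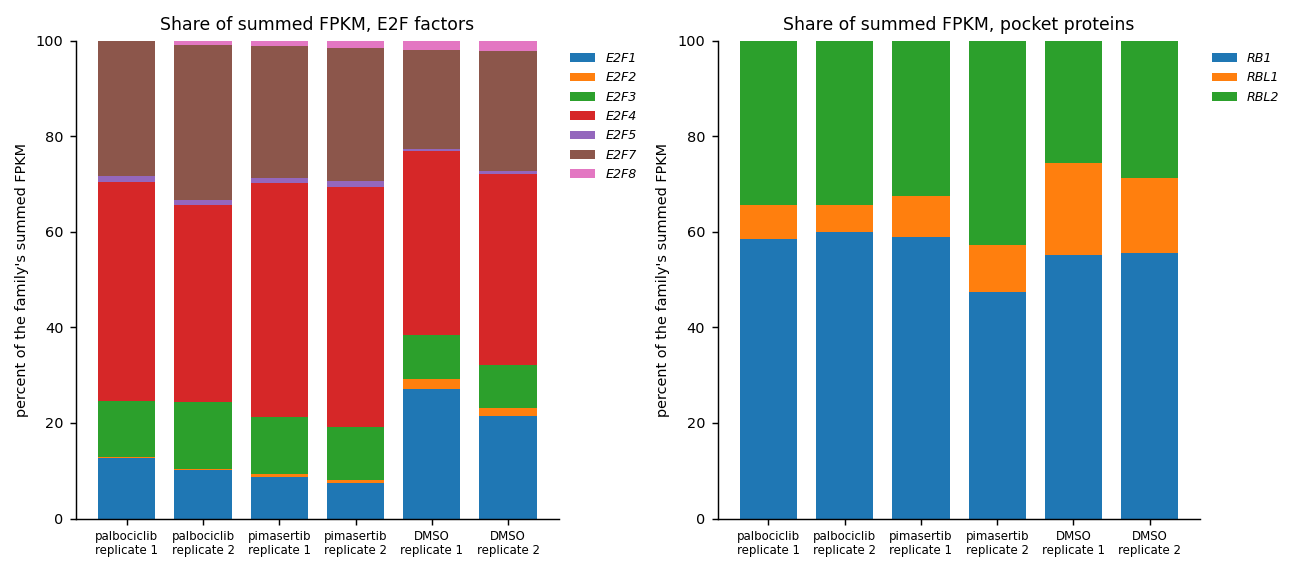
Percent of the summed FPKM of the 3 pocket protein genes and of the 7 E2F genes in each library, as stacked bars from 0 to 100, with treated libraries left of DMSO. RBL1 takes a smaller part of the treated bars than of the DMSO bars, and E2F1 takes 24.4% of E2F FPKM on average in DMSO.

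Most of the genes that E2F factors are known to switch on for DNA synthesis fell under both drugs. Of 40 listed target genes, 32 passed as lower in palbociclib, where 2.44% of all tested genes did, and none passed as higher, with a median log2 fold change of -1.62. Without adjustment 39 had a p under 0.05, all lower, beside 18% of all tested genes in either direction, and DESeq2 called 35, beside 3.56% of all tested genes called lower. CLSPN, which passes on the replication checkpoint signal, had a log2 fold change of -2.43 (SE 0.35, edgeR adjusted p = 0.00394). MCM10, which helps start the replicative helicase, was at -2.36 (SE 0.26, edgeR adjusted p = 0.00163), and ORC1, a subunit that marks origins, at -2.29 (SE 0.29, adjusted p = 0.00246). The 8 that did not pass were POLA1, POLA2, POLE2, RPA2, SLBP, CHEK1, MSH6 and TIPIN, with log2 values from -1.35 to -0.50. With the replicate block all 40 passed as lower, beside 11.3% of all tested genes.

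In pimasertib all 40 target genes passed as lower, where 11.7% of all tested genes did, with a median of -1.54. RRM2, a ribonucleotide reductase subunit, had a log2 fold change of -2.38 (SE 0.29, edgeR adjusted p = 0.000410), and CLSPN of -2.32 (SE 0.35, adjusted p = 0.00130). MCM10 was at -2.29 (SE 0.26, edgeR adjusted p = 0.000297), and CDC45, a part of the replicative helicase, at -2.10 (SE 0.27, adjusted p = 0.000523). The count was 22 of 40 without pimasertib replicate 2 and between 34 and 40 without any other library. The list was written from textbook knowledge, with earlier results of these data known. The medians are a description with no test of the list.

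A further list held partners that bind DNA with E2F, parts of the DREAM repressor complex and related factors. Of its 11 tested genes, 2 passed as lower in palbociclib, where 2.44% of all tested genes did. In pimasertib 5 passed as lower, where 11.7% did, and the medians were -0.62 and -0.70. FOXM1 and MYBL2, transcription factors of G2 and mitosis genes that are not parts of DREAM, passed under both drugs. No other gene of the list passed in palbociclib. FOXM1 averaged 60.7 ± 18.7 CPM in palbociclib, 55.8 ± 1.73 CPM in pimasertib and 219 ± 38.9 CPM in DMSO, and MYBL2 averaged 23.5 ± 9.58 CPM in palbociclib, 26.4 ± 5.34 CPM in pimasertib and 83.1 ± 15.1 CPM in DMSO (SD, n = 2 each). The log2 fold changes of FOXM1 were -1.85 in palbociclib (SE 0.26, edgeR adjusted p = 0.00342) and -1.97 in pimasertib (SE 0.26, adjusted p = 0.000664). Those of MYBL2 were -1.82 in palbociclib (SE 0.30, edgeR adjusted p = 0.00727) and -1.65 in pimasertib (SE 0.29, adjusted p = 0.00338), the second lost without pimasertib replicate 2 (0.0626).

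TFDP1, the DP subunit with which E2F1 to E2F6 pair to bind DNA, averaged 170 ± 13.7 CPM in palbociclib, 120 ± 14.2 CPM in pimasertib and 269 ± 28.2 CPM in DMSO (SD, n = 2 each). It fell by 1.16 on the log2 scale in pimasertib (SE 0.22, edgeR adjusted p = 0.00473), a call lost without pimasertib replicate 2 (0.0727), and its palbociclib value of -0.66 (SE 0.22, adjusted p = 0.140) passed with the replicate block (0.00121). LIN9 and LIN54, of the MuvB core that DREAM is built on, fell in pimasertib, at -1.19 and -0.92 (edgeR adjusted p = 0.0254 and 0.0344). LIN9's call was lost without pimasertib replicate 2 (0.188) or DMSO replicate 1 (0.0681), and LIN54's without pimasertib replicate 1 (0.0726), pimasertib replicate 2 (0.248) or DMSO replicate 1 (0.304). LIN54 was named after its value was seen, to complete the 5. In palbociclib LIN9 and LIN54 were at -0.61 and -0.79 (edgeR adjusted p = 0.3475 and 0.153, with the block 0.122 and 0.00927). TFDP2 had log2 values of 0.54 in palbociclib and 0.28 in pimasertib (edgeR adjusted p = 0.322 and 0.486; with the block 0.0115 and 0.0839), E2F6, a repressor without a pocket protein site, -0.12 and -0.20 (0.840 and 0.557), and the MuvB subunit RBBP4 -0.49 and -0.70 (0.388 and 0.0968; with the block 0.0331 and 0.00170). With the block 7 genes of the list passed as lower in palbociclib, beside 11.3% of all tested genes, and 6 in pimasertib, beside 23.6%. In each, 1 passed as higher, beside 1283 and 3056 of the 14839 tested genes.

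Upstream of the pocket proteins, 6 of 15 tested cyclins, kinases, kinase inhibitors and their regulators passed as lower in palbociclib, where 2.44% of all tested genes did, and none as higher, with a median of -0.49. Without adjustment 9 had a p under 0.05, beside 18% of all tested genes. With the replicate block 8 passed as lower, beside 11.3% of all tested genes, and 1 as higher, beside 1283 of 14839. Cyclin A2 (CCNA2), a partner of CDK2, had a log2 fold change of -2.41 (SE 0.25, edgeR adjusted p = 0.00161), and the CDK4/6 inhibitor p18 (CDKN2C) of -1.87 (SE 0.22, adjusted p = 0.00190). The CDK2-activating phosphatase CDC25A was at -1.75 (SE 0.25, edgeR adjusted p = 0.00398), and cyclin E2 (CCNE2) at -1.74 (SE 0.34, adjusted p = 0.0204). The CCNE2 call was lost without palbociclib replicate 2 (0.0844) or DMSO replicate 1 (0.0819).

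In pimasertib 8 of the 15 passed as lower, where 11.7% of all tested genes did, with a median of -0.91. As higher 1 passed, beside 1644 of 14839 tested genes. With the block 9 passed as lower, beside 23.6% of all tested genes, and 2 as higher, beside 3056 of 14839. Cyclin D1 (CCND1), the partner of CDK4 and CDK6 and a target of ERK signalling, had a log2 fold change of -2.65 (SE 0.34, edgeR adjusted p = 0.000575), and CDC25A of -2.59 (SE 0.26, adjusted p = 0.000158). The CDK4/6 inhibitor p19 (CDKN2D) was at -2.14 (SE 0.33, edgeR adjusted p = 0.00141), and CCNE2 at -1.73 (SE 0.34, adjusted p = 0.00597), the second lost without pimasertib replicate 2 (0.0664). The CDK inhibitor p27 (CDKN1B) rose by 0.86 (SE 0.22, adjusted p = 0.0191), a call lost without pimasertib replicate 1 (0.107), pimasertib replicate 2 (0.0792) or DMSO replicate 1 (0.0613). In palbociclib CCND1 was at 0.77 (SE 0.32, edgeR adjusted p = 0.245) and passed as higher with the block (0.000761). CDKN2D was at -1.29 in palbociclib (SE 0.31, edgeR adjusted p = 0.0511) and passed as lower with the block (0.00577). CDK4 had log2 values of -0.31 in palbociclib and -0.53 in pimasertib (edgeR adjusted p = 0.541 and 0.125; 0.0871 and 0.00220 with the block), and CDK6 of 0.21 and -0.02 (0.766 and 0.970).

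Of 12 chromatin factors and other proteins that bind pocket proteins, 2 passed as lower in palbociclib, where 2.44% of all tested genes did, and 3 in pimasertib, where 11.7% did, with medians of -0.22 and -0.47. With the replicate block 5 passed as lower in palbociclib, beside 11.3% of all tested genes, and 8 in pimasertib, beside 23.6%. SUV39H1, a histone H3 lysine methyltransferase, was at -1.75 in palbociclib (SE 0.31, edgeR adjusted p = 0.0104) and -1.61 in pimasertib (SE 0.30, adjusted p = 0.00454), the second lost without pimasertib replicate 2 (0.0503). DNMT1, the maintenance DNA methyltransferase, was at -0.99 in palbociclib (SE 0.22, edgeR adjusted p = 0.0400) and -1.11 in pimasertib (SE 0.23, adjusted p = 0.00676). Its palbociclib call was lost without any library other than DMSO replicate 2, at adjusted p of up to 0.196, and its pimasertib call without pimasertib replicate 2 (0.0864). RBBP8, the DNA end-resection factor CtIP, fell by 1.19 in pimasertib (SE 0.25, edgeR adjusted p = 0.00762; 0.0949 without pimasertib replicate 2) and had -0.96 in palbociclib (SE 0.25, adjusted p = 0.0654, and 0.000444 with the block).

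**Figure D4:**
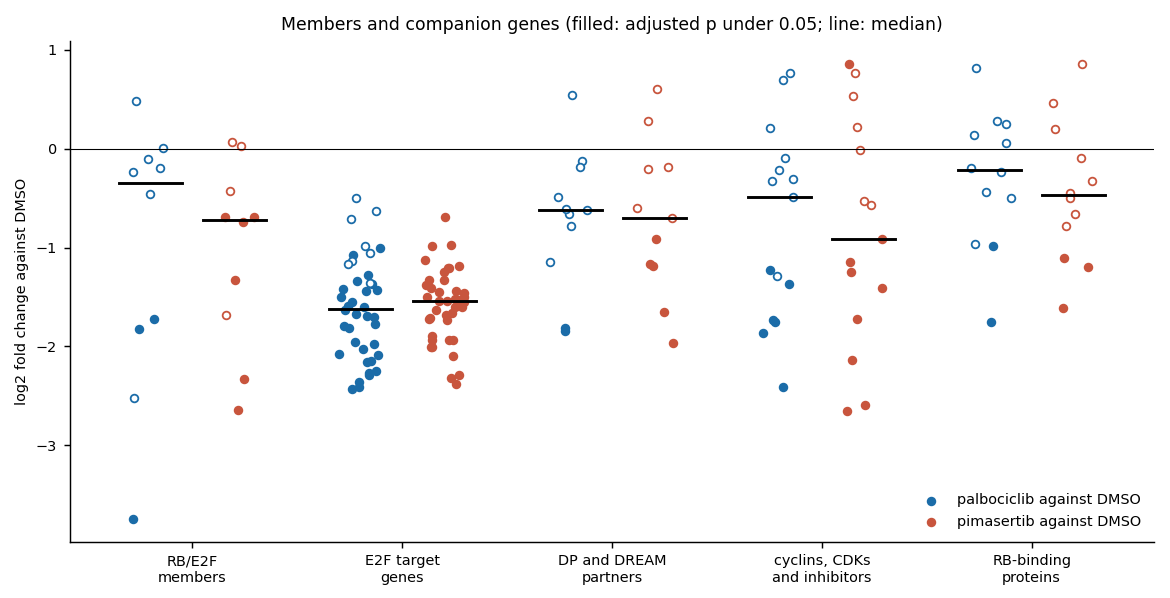
Log2 fold changes against DMSO of the 10 members and of the tested genes in 4 companion lists, palbociclib left of pimasertib. Each point is a gene, filled where the edgeR adjusted p was under 0.05, and lines are medians. The 40 E2F target genes all lie below 0 under both drugs, while members and the other 3 lists spread on both sides.

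Set directly against each other, the drugs differed in 1 member past the threshold. E2F1 was 1.90-fold higher in palbociclib than in pimasertib (log2 0.92, SE 0.24, 95% interval 0.39 to 1.46, edgeR adjusted p = 0.0392), where 4.31% of all tested genes were called higher and 5.07% lower. The within-replicate differences were 0.98 and 0.86. The call was lost without palbociclib replicate 1 (0.162), pimasertib replicate 1 (0.133) or pimasertib replicate 2 (0.274) and with limma-voom (0.0617). E2F2 pointed the other way at -1.41 (SE 0.43, interval -2.37 to -0.45, edgeR adjusted p = 0.0716) and passed with the block (0.0152) and with no filter on low counts (0.0469).

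E2F3 missed the threshold at 0.59 (interval 0.15 to 1.04, edgeR adjusted p = 0.0988). So did E2F7 at 0.55 (interval 0.10 to 0.99, edgeR adjusted p = 0.124) and RBL1 at -0.50 (SE 0.23, adjusted p = 0.208). With the replicate block E2F3 (0.00859) and E2F7 (0.00342) passed as higher in palbociclib, and RBL1 as lower just under the threshold, so that 2 members were lower and 3 higher, where 16.1% and 15.6% of all tested genes were. RB1 at 0.19 (edgeR adjusted p = 0.646), RBL2 at -0.06 (0.883), E2F4 at 0.23 (0.499), E2F5 at 0.45 (0.507) and E2F8 at -0.84 (interval -2.22 to 0.53, 0.432) did not pass under either. E2F8 did so without palbociclib replicate 2, at -2.68 (edgeR adjusted p = 0.0170).

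Target genes hardly separated the drugs, at a median log2 difference of -0.04. In the reported fit 1 of the 40 passed, as lower in palbociclib, where 5.07% of all tested genes were called lower and 4.31% higher. EZH2, the Polycomb histone methyltransferase and the only one of the 40 past the threshold in the reported fit, was lower in palbociclib (log2 -1.06, SE 0.22, edgeR adjusted p = 0.0126), a call lost without palbociclib replicate 1 (0.0926), pimasertib replicate 1 (0.0947) or pimasertib replicate 2 (0.0676). With the replicate block 5 of the 40 passed as lower and 3 as higher, beside 16.1% and 15.6% of all tested genes. It averaged 9.81 ± 1.55 CPM in palbociclib, 20.5 ± 1.55 CPM in pimasertib and 47.3 ± 3.18 CPM in DMSO (SD, n = 2 each), and was named after its value was seen. CCND1 averaged 2016 ± 642 CPM in palbociclib and 188 ± 37.7 CPM in pimasertib, a log2 difference of 3.42 (SE 0.35, edgeR adjusted p = 0.000253). CDKN2C differed by -2.08 (SE 0.22, adjusted p = 0.000283) and CCNA2 by -1.49 (SE 0.25, adjusted p = 0.00386; 0.0508 without pimasertib replicate 1), both lower in palbociclib.

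**Figure D5:**
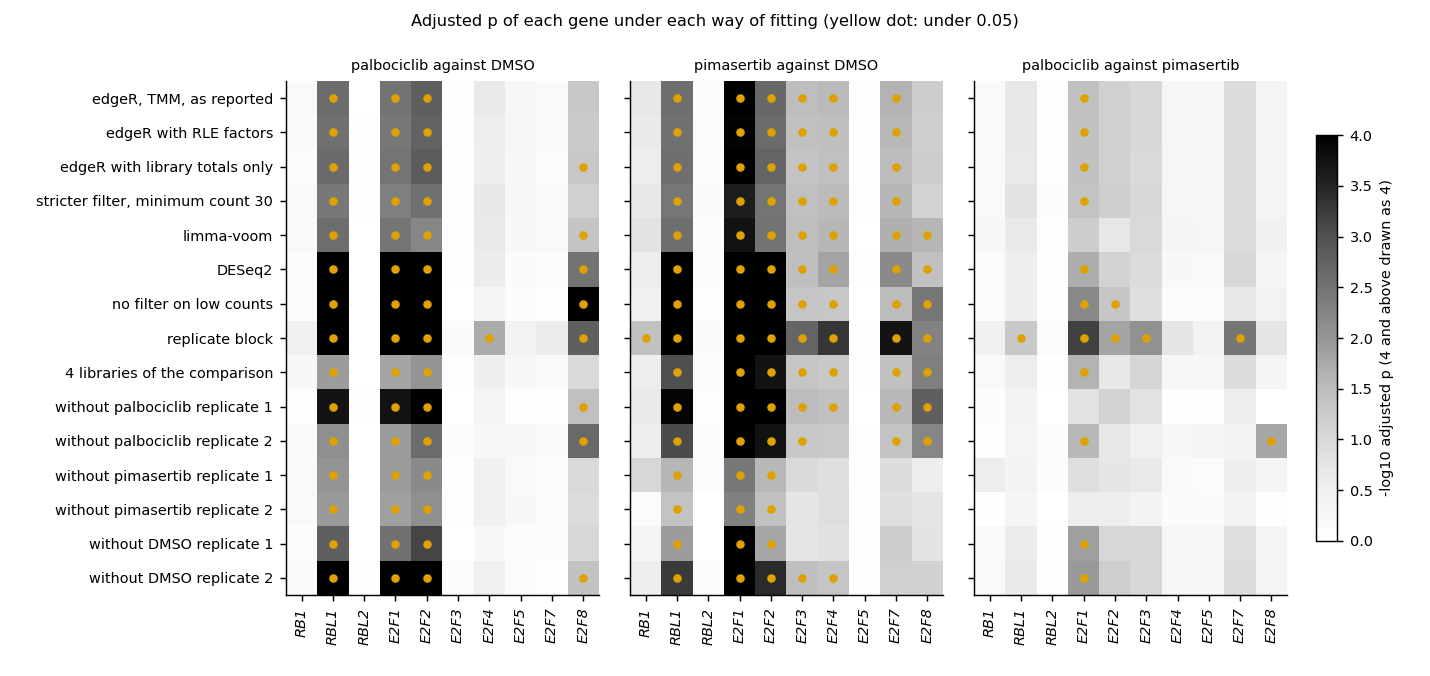
Adjusted p of each member under each way of fitting, for the 3 comparisons, as -log10 on a grey scale on which 4 and above are drawn alike. A yellow dot marks an adjusted p under 0.05. RBL1, E2F1 and E2F2 carry a dot in every row of both comparisons with DMSO, while E2F8, E2F3, E2F4 and E2F7 lose or gain theirs between rows.

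The genes whose pattern over the 6 libraries was most like a member's were found by the root mean square (RMS) difference of log2 CPM centred on each gene's mean, among 10109 protein-coding genes with a mean of at least 5 CPM. For E2F1 the nearest was CDC25A (RMS 0.0579), at 20.0 and 15.8 CPM in palbociclib, 10.2 and 9.76 CPM in pimasertib and 72.5 and 47.6 CPM in DMSO, followed at a distance by FOSL1 (0.208) and MLF1IP (0.216). RBL1 was nearest to RAD54L (0.0489), CENPI (0.0569) and HJURP (0.0573). E2F2 (FAM111B at 0.314, SYNE2 at 0.342, EMP2 at 0.409) and E2F8 (KIF18B at 0.395, ARHGEF39 at 0.446, PASK at 0.473) had no neighbour as near, and both are low in counts. RB1 lay nearest to TCEA1 (0.0157), FAM98B (0.0637) and AZIN1 (0.0657), and TCEA1 shared its low value in pimasertib replicate 2, at 56.8 CPM beside 84.9 CPM in replicate 1.

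E2F3 lay nearest to BICD1 (0.0369), AMN1 (0.0508) and SMARCD2 (0.0660), E2F4 to TRRAP (0.0396), REXO1 (0.0474) and BCL7C (0.0505), and E2F7 to GAS2L1 (0.0757), ZC3H12C (0.0827) and JUN (0.0871). RBL2 lay nearest to VWA8 (0.0298), TRNT1 (0.0436) and ARMCX6 (0.0497), and E2F5 to USP20 (0.0436), ST6GALNAC6 (0.0606) and ATM (0.0762). Within the family the closest pairs were E2F3 with E2F7 (0.110) and E2F4 with E2F7 (0.183). These are descriptions over 6 libraries that share their depth and scaling, and genes with little change have near neighbours by that alone.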

How the data were processed

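RNA of HT-1080 cells was sequenced in 6 libraries. Tools listed in the submitters' processing notes are HTSeq 0.6.1, STAR 2.5, CASAVA and DESeq2, and the build is given as GRCh37 or hg19. No order or settings are listed. The authors deposited 1 table per drug with raw read counts per gene, FPKM and their test results. Per the file headers these results are mean normalized counts (a signal), a log2 fold change and 2 kinds of p-value, none of which is printed here. The tables held 23914 genes (palbociclib) and 24931 (pimasertib), 22559 of them in both. DMSO counts of shared genes were identical, genes of 1 table only had no DMSO count, and missing counts were set to 0.

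The deposited counts entered edgeR 4.0.16 (R 4.3.3; filterByExpr, minimum count 10 and minimum total 15; TMM; 1 model of 3 groups; robust glmQLFit; glmQLFTest, two-sided; Benjamini-Hochberg over 14839 genes). CPM are counts over TMM-scaled totals. The SE is the absolute log2 fold change over the square root of F, and 95% intervals use edgeR's degrees of freedom. Count intervals are exact, and they and the floor of 3 counts cover counting error only. Levels were compared between genes by the authors' FPKM. The fit was also run on simulated counts without a replicate effect, which checks the code and not its performance on these data. Alternatives were DESeq2 1.42.0, voom of limma 3.58.1, other scalings and filters, a replicate block, the 4 libraries of a comparison alone, and leaving out each library.

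Replicate numbers were treated as pairing the samples in the blocked fit only, and the reported fit does not use them. Over 14839 genes, differences between replicates correlated at 0.397 between palbociclib and DMSO, 0.351 between pimasertib and DMSO and 0.345 between palbociclib and pimasertib. The pairing is read from the data, since the labels give only numbers. Blocked values stand beside counts and beside the tests of named genes, among those given, whose call they change. Comparisons of a named gene that are not given carry no blocked value, and the block changes some of their calls too.

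All members are named, with, per companion list and drug, up to 4 genes per direction past the threshold with the largest log2 fold change; 7 companions (TFDP1, TFDP2, E2F6, CCND1, CDK4, CDK6, RBBP4) whatever their value; and the 3 protein-coding genes nearest to each member (prior count 2). One gene taken by this rule is not reported here. Members and lists were chosen with earlier results of these data known. TFDP3, CDKN2A, CDKN2B, ESRP1 and PECAM1 were not analysed here.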

Additional observations from a re-analysis of the deposited data

How the results depend on the processing

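Of 420 alternative values of the members' log2 fold changes, 372 kept their direction and their side of the threshold, 23 newly passed, 15 no longer passed and 10 changed sign. The sign changed when 1 library was left out, in values that never passed: RBL2 ranged from -0.052 to 0.075 and E2F3 from -0.21 to 0.029 in palbociclib against DMSO, RBL2 from -0.00086 to 0.12 and E2F5 from -0.11 to 0.16 in pimasertib against DMSO, and RB1 from -0.077 to 0.53 and RBL2 from -0.14 to 0.013 in palbociclib against pimasertib. The cause was not tested.

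With the replicate block, edgeR called 2953 genes and 5 members in palbociclib against DMSO (526 and 3 without it), 6551 genes in pimasertib against DMSO (3376 without it), and 4703 genes, 5 members and 8 target genes in palbociclib against pimasertib (1393, 1 and 1 without it). Beyond the calls given beside each gene, the block changed no other call of a member. DESeq2 called 883 genes in palbociclib against DMSO, no filter on low counts 1097, and a fit of the 4 libraries 325. Between the drugs, no filter gave 2256 genes, 2 members and 2 target genes, limma-voom 0 members (E2F1 lost), and the stricter filter and the 4 libraries 2 target genes each.

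Leaving out 1 library gave 334 to 763 genes, 3 to 4 members and 27 to 35 target genes in palbociclib against DMSO. In pimasertib against DMSO it gave 1055 (without pimasertib replicate 2) to 4084 genes, 3 to 7 members and 22 to 40 target genes, and the 3 members came without pimasertib replicate 1, pimasertib replicate 2 or DMSO replicate 1. Without pimasertib replicate 1 there were 1576 genes and without DMSO replicate 1 there were 1845. Between the drugs it gave 456 (without pimasertib replicate 2) to 1940 genes, 0 to 2 members and 0 to 2 target genes, with 566 genes without pimasertib replicate 1. A group left with 1 library is assumed to vary like the others. Depth limits E2F2, E2F5 and E2F8 most, which held 5 to 64 counts in the treated libraries.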
